A study of Homo sapiens with 4 samples.

Results

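The ubiquitin-specific protease (USP) genes were taken here as every alternative splicing event whose gene symbol begins with USP followed by a digit. This rule found 793 events at 45 symbols among the 121269 events of the 5 event types, and 425 events in 40 of these genes passed the count filter for a test, which asked for 5 counts in each library, 4 counts of each form and an average of 20. The rule used gene names only. It also matched 3 symbols that are no proteases, the antisense RNA USP3-AS1, the pseudogene USP32P1 and USP6NL, a GTPase-activating protein, and none of these had an event that could be tested. USP43 and USP49 had none either, and USP28 was tested only through 1 pair of exons.

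The events came from RNA-seq of U87MG, a glioblastoma cell line, transfected with lipofectamine at 2.5 µM with either of 2 oligonucleotides. RBFOXi is an RNA decoy with 2′-O-methyl sugars that carries repeats of the motif bound by the splicing factors RBFOX1 and RBFOX2, and SCRM is a scrambled control. Each group held 2 libraries that the labels call biological replicates, and the labels give the dye Cy5 for the oligonucleotide of RBFOXi replicate 1 and for no other library. All 4 libraries came from this 1 line, so the differences between them apply to it alone. Of the marker genes checked, 6 of 7 glioma and mesenchymal genes, 2 of 4 neuronal, 1 of 4 epithelial and 0 of 4 leukocyte genes had an event with a mean of 20 counts per library, and a gene without an alternative event is not seen in such tables.

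Ubiquitin is a small protein that cells attach to other proteins to mark them for destruction, sorting or signalling. Ubiquitin-specific proteases form the largest family of deubiquitinases and cut ubiquitin off again, and members differ in the substrates and compartments they serve. RBFOX proteins bind UGCAUG in introns. A site downstream of an alternative exon usually goes with inclusion of that exon, and an upstream site with skipping.

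For each skipped exon, the proportion spliced in (PSI) is the length-corrected share of counts that include the exon, from 0 to 1. Delta PSI is the mean of the RBFOXi libraries minus the mean of the SCRM libraries, so a negative value means less inclusion with RBFOXi. An event was called at an adjusted p under 0.05 (limma on the log2 odds of inclusion, Benjamini-Hochberg within the event type) if its delta PSI was also 0.1 or more in size. For an exon tested in several events, the event with most counts was taken to stand for the exon. At the tested skipped exons of USP genes, 178 distinct exons in 39 genes, 140 were included at a mean SCRM PSI over 0.9, 9 lay under 0.1 and 29 exons of 17 genes lay in between. These 29, 16.3% of the USP exons beside 17.9% of all tested exons, are called alternatively used below.

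Of the 29 alternatively used exons, 15 have a length that is a multiple of 3. The coding ones among these of up to 150 nt and with annotated skipping are printed with 20 nt of each intron, the one with most counts in each gene, because they are exons at which a USP protein can gain or lose a stretch without a frame shift. Capitals mark the exon, lower case the introns, and positions and strand are those of hg19.
USP8 exon 12, chr15:50776452-50776578, plus strand: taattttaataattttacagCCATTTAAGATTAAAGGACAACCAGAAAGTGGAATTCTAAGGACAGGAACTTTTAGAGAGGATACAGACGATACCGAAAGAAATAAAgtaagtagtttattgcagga
USP4 exon 7, chr3:49348927-49349107, minus strand: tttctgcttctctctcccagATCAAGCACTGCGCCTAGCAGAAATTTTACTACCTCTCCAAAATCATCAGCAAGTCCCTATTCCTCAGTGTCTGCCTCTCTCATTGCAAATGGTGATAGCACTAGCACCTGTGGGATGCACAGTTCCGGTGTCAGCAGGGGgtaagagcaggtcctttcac
USP15 exon 7, chr12:62742982-62743108, plus strand: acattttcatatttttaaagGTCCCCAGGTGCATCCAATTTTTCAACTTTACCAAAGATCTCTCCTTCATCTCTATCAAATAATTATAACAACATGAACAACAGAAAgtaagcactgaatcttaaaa
USP14 exon 4, chr18:178913-179057, plus strand: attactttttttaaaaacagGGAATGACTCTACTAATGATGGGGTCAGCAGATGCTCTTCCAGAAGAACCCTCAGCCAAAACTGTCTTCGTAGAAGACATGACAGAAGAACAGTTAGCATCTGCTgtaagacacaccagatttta
USP47 alternative exon, chr11:11895327-11895426, plus strand: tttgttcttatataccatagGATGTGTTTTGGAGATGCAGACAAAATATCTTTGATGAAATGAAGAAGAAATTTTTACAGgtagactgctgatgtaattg
USP54 exon 22, chr10:75264588-75264768, minus strand: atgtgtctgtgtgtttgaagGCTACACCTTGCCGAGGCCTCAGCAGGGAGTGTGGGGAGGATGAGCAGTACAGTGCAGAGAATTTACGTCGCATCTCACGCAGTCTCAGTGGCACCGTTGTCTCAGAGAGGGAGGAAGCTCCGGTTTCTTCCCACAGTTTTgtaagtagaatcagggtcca

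The sequences of the RBFOX motif beside USP exons are shown because they mark where binding of the targeted factors could be looked for. Of the 178 tested USP exons, 12 (6.74%) carried UGCAUG within 300 nt downstream of the exon, against 8.36% of all 30617 tested exons. USP8 exon 12 was the only one of the 12 that was alternatively used. Its site is printed with those of USP25, USP18 and USP35, which lie closest to their exons and begin at base 17, 58 and 84 of the intron, each in a window of 30 nt, 5′ to 3′ in DNA letters, with the motif in capitals.
USP8, intron after exon 12, chr15:50776699-50776728, plus strand: tttgcttgttttTGCATGatcaatccattt
USP25, chr21:17196490-17196519, plus strand: ggtttgatatacTGCATGacttagtttgaa
USP18, chr22:18656655-18656684, plus strand: ggtccttggagcTGCATGaaacgcccatgg
USP35, chr11:77908036-77908065, plus strand: cgtgtggatttgTGCATGcgggcgcccgtg

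SCRM replicate 1 stood apart from the other 3 libraries in how its counts were spread along transcripts. The libraries summed to 114415530 to 136097319 counts over the skipped exon table, and USP events held 0.149% of them in SCRM replicate 1 and 0.282% to 0.359% in the others. The median count of a tested USP exon was 408 and 522 in the RBFOXi libraries, 118.5 in SCRM replicate 1 and 572 in SCRM replicate 2. Counts of USP exons more than 6000 nt from the 3′ end of their transcript were 0.0966-fold those of SCRM replicate 2 at the median of 35 exons, while RBFOXi replicate 1 stood at 0.555-fold and RBFOXi replicate 2 at 0.744-fold. Of the USP exons with an annotated position, 61.0% lay more than 3000 nt from the 3′ end, against 36.4% of all exons. The median count of SCRM replicate 1 over all tested exons was 298. Its part in the differences reported below was not tested beyond leaving it out, and values without it are given for many but not all of the exons described in detail.

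**Figure D1:**
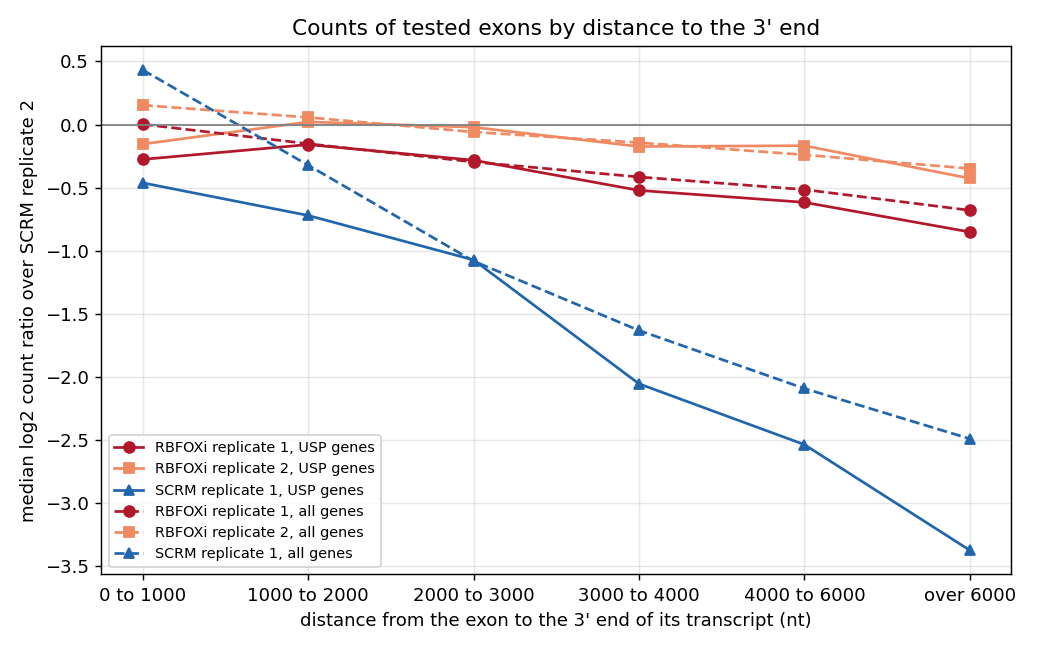
Median log2 ratio of exon counts over SCRM replicate 2, by the distance (nt) of the exon to the 3′ end of its transcript, for USP genes (solid lines) and all genes (dashed lines). SCRM replicate 1 falls to -3.37 for USP exons over 6000 nt from the end, while the RBFOXi libraries reach -0.85 and -0.43.

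No USP exon was called. limma called 0 of the 216 tested USP events, against 44 of 39615 over all genes (0.111%), and a quasi-binomial F test on the same counts also called 0. An unadjusted p under 0.05 was found with limma for 2 USP events, 0.926% against 3.4% of all events, at 2 exons (1.12%, against 3.46% of all exons). The F test gave 7 such events of the 216 in USP genes. Its count over all genes at that threshold was not taken, so the 7 cannot be set against a background. The smallest adjusted p at any USP exon was 0.99995 with limma. The count over all genes was 22 without RBFOXi replicate 2, 13 without SCRM replicate 1 and 14 without SCRM replicate 2, and the USP count stayed at 0 in each of these.

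Differences at USP exons were small and lay on both sides of 0. An exon is described as lower where both RBFOXi libraries lay below both SCRM libraries, and higher where both lay above. The median delta PSI of the 178 exons was -0.000728 and the median of its absolute value 0.0103, beside 0.00756 over all exons. On the log2 odds scale the median was 0.13, of the opposite sign. An absolute delta PSI of 0.1 was reached by 5 exons (2.81%, against 4.43% of all exons), and by 3 without SCRM replicate 1. Of the 178 exons, 35 were lower (19.7%, against 16.9% of all exons) and 29 higher (16.3%, against 14.0%), together 36.0% of USP exons against 30.9% of all exons.

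Among the 29 alternatively used exons, 0 were called (0.583% of all alternatively used exons). The groups did not overlap at 9 of the 29 (31.0%, against 29.6%), of which 3 were lower (10.3%, against 10.8%) and 6 higher (20.7%, against 18.8%). SCRM replicate 1 had the lowest PSI of the 4 libraries at 16 of these exons and the highest at 8, together 82.8%, and the same library was at either end for 62.9% of all alternatively used exons. The other libraries were at either end of 34.5% to 41.4% of the USP exons. Delta PSI was positive at 20 of the 29 with all libraries, beside 3383 of all 5485 alternatively used exons. Without SCRM replicate 1 it was positive at 15 of the 29, and it changed sign at 13 of them. Exons were chosen as alternatively used by mean SCRM PSI, so the value of SCRM replicate 1 also bore on which exons are among the 29.

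**Figure D2:**
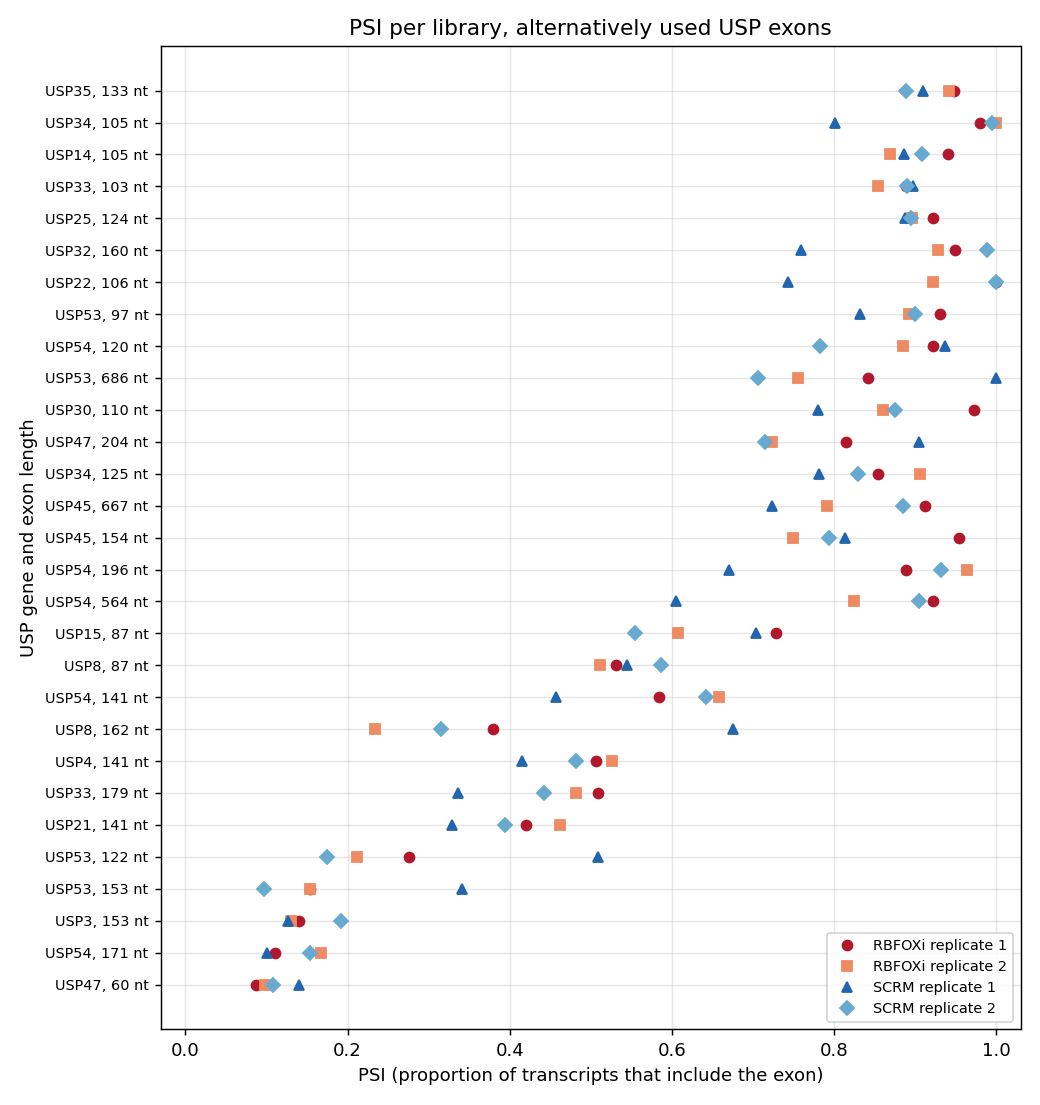
PSI (0 to 1) of the 29 alternatively used USP exons in each library, by gene and exon length, ordered by mean SCRM PSI. SCRM replicate 1 (dark triangles) lies outside the range of the other 3 libraries at 24 exons.

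The study measured USP8 splicing by RT-PCR and reported that it changed significantly with a decoy against the splicing factor SRSF1. It reported no significant change with its other decoys, RBFOXi among them, and its text does not name the exon. The values below are from RNA-seq, a different assay. USP8 removes ubiquitin from internalised receptors at endosomes. Its exon 12, 87 nt of coding sequence at chr15:50776472-50776558, was the alternatively used exon with the motif. Its PSI was 0.531 and 0.511 in the RBFOXi libraries and 0.544 and 0.587 in the SCRM libraries. Both RBFOXi libraries lay below both SCRM libraries, and the nearest libraries of the 2 groups were closer to each other than the SCRM libraries were. The means were 0.521 ± 0.0139 and 0.565 ± 0.0298 (SD, n = 2), and delta PSI was -0.0446. The log2 odds changed by -0.26 (SE 0.37, 95% interval -1.02 to 0.51), with a limma p of 0.496 and an adjusted p of 0.99995. UGCAUG begins at base 153 of the intron that follows, in the window printed above. Delta PSI was -0.0657 without SCRM replicate 1 and -0.0235 without SCRM replicate 2.

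The same USP8 exon was measured a second time with exon 10 as its upstream neighbour, where skipping means the loss of exons 11 and 12 together. Only 1 to 3 skipping counts were seen per library there, and PSI lay between 0.949 and 0.980. Nearly all counts that skip exon 12 thus joined exon 11 to exon 13. The second alternatively used exon of USP8 was a 162-nt exon of the 5′ UTR at chr15:50724535-50724696. Its PSI was 0.379 and 0.234 with RBFOXi and 0.676 and 0.316 with SCRM. The high value of SCRM replicate 1 rested on 20 counts and the other 3 libraries held 181 to 300. Delta PSI was -0.189 with all libraries, -0.00911 without SCRM replicate 1 and -0.369 without SCRM replicate 2. With all libraries limma gave a p of 0.0719. The remaining 5 tested USP8 exons were included at a PSI of 0.94 or more in every library. Exon 7 of these had a PSI of 0.944 and 0.966 with RBFOXi and 1.00 in both SCRM libraries, on 4 skipping counts in each RBFOXi library and 0 in the SCRM libraries.

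USP33 and USP20 are close relatives that act on signalling receptors. A 179-nt exon near the start of USP33, at chr1:78211106-78211284, had a PSI of 0.508 and 0.482 with RBFOXi and 0.336 and 0.443 with SCRM. Both RBFOXi libraries were higher, the log2 odds changed by 0.63 (SE 0.39) with a limma p of 0.117, and delta PSI was 0.106. It was 0.0523 without SCRM replicate 1 and 0.159 without SCRM replicate 2. USP33 exon 22 went the other way by a small margin, with 0.889 and 0.854 against 0.898 and 0.890, and its delta PSI of -0.0223 was -0.00466 without RBFOXi replicate 2. In the whole list of receptor-sorting genes, 3 of 5 had a tested exon, and of 17 exons 3 were lower, 5 higher and 0 called (47.1% not overlapping, against 30.9% of all exons), with a median delta PSI of 0.00102.

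USP4 and USP15 are paralogues that act, among other substrates, on proteins of the spliceosome, and USP39 is itself a spliceosome component. USP4 exon 7, 141 nt, had a PSI of 0.506 and 0.526 with RBFOXi and 0.415 and 0.482 with SCRM, so the groups did not overlap. Delta PSI was 0.0677 with all libraries, 0.0343 without SCRM replicate 1 and 0.101 without SCRM replicate 2, and the log2 odds changed by 0.39 (SE 0.38, 95% interval -0.38 to 1.17). Exon 7 of USP15, 87 nt, had 0.728 and 0.608 with RBFOXi and 0.703 and 0.554 with SCRM. The groups overlapped, and in both groups replicate 1 was higher than replicate 2. In USP4, 7 of 10 exons were higher and 1 lower (14.0% and 16.9% of all exons), all but exon 7 with a SCRM PSI over 0.9, and its delta PSI ranged from -0.0217 to 0.0677. All 6 tested exons of USP39 were included at a mean SCRM PSI of at least 0.994. Over the 3 genes, 4 of 19 exons were lower and 7 higher (57.9% not overlapping, against 30.9% of all exons), 0 were called, and the median delta PSI was 0.000456.

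Several USPs remove ubiquitin from histones, among them USP3, USP16, USP21 and the SAGA subunit USP22. USP21 exon 2, a 141-nt exon of the 5′ UTR, had a PSI of 0.420 and 0.462 with RBFOXi and 0.328 and 0.395 with SCRM. Both RBFOXi libraries were higher, with a delta PSI of 0.0796, a log2 odds change of 0.48 (SE 0.39) and a limma p of 0.227. It was 0.0464 without SCRM replicate 1 and 0.113 without SCRM replicate 2. USP36, a nucleolar protease, had the smallest limma p of any tested USP exon at exon 8, 71 nt. PSI there was 1.00 and 0.993 with RBFOXi and 0.899 and 0.958 with SCRM, and the log2 odds changed by 3.16 (SE 1.16), with a limma p of 0.0118 and an adjusted p of 0.99995. Delta PSI was 0.0680 with all libraries and 0.0386 without SCRM replicate 1, where the p was 0.127. An alternative exon 2 of USP3, 153 nt, was mostly skipped in every library, at 0.127 to 0.192. Of the 23 exons in 7 tested genes of this list, 4 were lower, 4 higher and 0 called (34.8% not overlapping, against 30.9% of all exons), with a median delta PSI of 0.00208.

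USP14 trims ubiquitin chains at the proteasome, USP5 takes apart free chains and USP13 is its paralogue. USP14 exon 4, 105 nt, was the deepest alternatively used exon, with a mean of 974.75 counts per library. Its PSI was 0.940 and 0.869 with RBFOXi and 0.887 and 0.908 with SCRM, so both SCRM libraries lay between the RBFOXi libraries. Delta PSI was 0.00716, and the interval of the log2 odds change ran from -0.91 to 1.35. All 6 tested USP5 exons had a mean SCRM PSI of at least 0.989 and an absolute delta PSI of at most 0.00332. USP13 exons 2 and 4 were lower in both RBFOXi libraries, exon 2 with 0.932 in each against 1.00 and 0.987, and exon 4 with 0.958 and 0.919 against 1.00 and 0.989. Their limma p was 0.327 and 0.326, and neither exon passed the stricter filter of 20 counts in every library. Their delta PSI was -0.0614 and -0.0560, and -0.0549 and -0.0507 without SCRM replicate 1. In these 3 genes, 3 of 17 exons were lower and 1 higher (23.5% not overlapping, against 30.9% of all exons), with 0 called and a median delta PSI of -0.00105.

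In the list of DNA repair and p53 genes, 10 of 27 exons were lower, 1 was higher and 0 were called (40.7% not overlapping, against 30.9% of all exons, of which 16.9% were lower and 14.0% higher), with a median delta PSI of -0.00522. USP10, which acts on p53 and binds the stress granule protein G3BP1, held the other exon with an unadjusted p under 0.05. That exon, exon 3 of 61 nt at chr16:84773915-84773975, had a PSI of 0.976 and 0.921 with RBFOXi and 0.982 in both SCRM libraries. Delta PSI was -0.0337 with all libraries, -0.0341 without SCRM replicate 1 and -0.00645 without RBFOXi replicate 2, so the value rested on the latter. The log2 odds changed by -1.26 (SE 0.57), with a limma p of 0.0388 and an adjusted p of 0.99995. USP48 had the most negative delta PSI of the 178 tested USP exons, -0.204, at a 164-nt form of exon 16. PSI there was 0.765 and 0.827 with RBFOXi against 1.00 in both SCRM libraries. All skipping counts came from the RBFOXi libraries, so the event passed the filter for each form through them alone. That event held 24 to 58 counts per library, and its interval ran from -4.99 to 1.02 in log2 odds. As a plain share of counts with no length correction its delta PSI was -0.0422, and the 162-nt exon of USP8 then had the most negative value, -0.164. The 125-nt form of the USP48 exon, which had more counts, had a delta PSI of -0.0522. This form kept that value without either SCRM library, so the PSI of both SCRM libraries was the same. Beside the 125-nt form, the 3′ splice site of the 164-nt form was used at 0.0161 and 0.00529 with RBFOXi and 0.0 in both SCRM libraries. With no use of that site in SCRM, the PSI of 1.00 there cannot be taken as inclusion of the 164-nt form itself. The delta PSI of -0.204 is likewise no measure of that form alone, and what set these events apart was not tested. A tested USP53 event that was not the deepest of its exon had a delta PSI of -0.256, and 0.116 without SCRM replicate 1. USP47 had 2 alternatively used exons. Its 60-nt exon was included at 0.0869 and 0.0982 with RBFOXi and 0.140 and 0.108 with SCRM, and its 204-nt exon 2 had 0.814 and 0.724 against 0.905 and 0.715. At the 60-nt exon delta PSI was -0.0314, and it was -0.0158 without SCRM replicate 1 and -0.0470 without SCRM replicate 2. At the 204-nt exon leaving out that library turned the sign, from -0.0406 to 0.0545.

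USP30 sits in the outer mitochondrial membrane and USP19 in the endoplasmic reticulum. USP30 exon 3 was lower in both RBFOXi libraries, with 0.868 and 0.905 against 1.00 and 0.910, by a narrow margin over SCRM replicate 2. Its delta PSI of -0.0683 came to -0.0235 without SCRM replicate 1 and -0.113 without SCRM replicate 2. Its exon 2 had a delta PSI of 0.0889 with overlapping groups, 0.0412 without SCRM replicate 1 and 0.0323 without RBFOXi replicate 1. The 4 USP19 exons had an absolute delta PSI of at most 0.0251. USP18, which cuts the ubiquitin-like protein ISG15, had 2 tested exons, of which 1 was higher (14.0% of all exons). In the list of USP1, USP12 and USP46, which pair with WDR48, 0 of 8 exons were called (0.134% of all exons).

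Among the proteases listed under growth and signalling, USP34 had 10 tested exons, and non-overlapping differences in both directions. USP34 exon 74, 125 nt, had 0.854 and 0.906 with RBFOXi and 0.781 and 0.829 with SCRM, a delta PSI of 0.0750 and a log2 odds change of 0.85 (SE 0.50, 95% interval -0.18 to 1.89). Delta PSI was 0.0491 without RBFOXi replicate 2, 0.101 without RBFOXi replicate 1 and 0.0510 without SCRM replicate 1. Exon 21 had 0.948 and 0.918 against 1.00 and 0.987, and it did not pass the stricter filter of 20 counts in every library. The value of USP32 exon 5 rested on 1 library, with 0.949 and 0.928 with RBFOXi, 0.989 in SCRM replicate 2 and 0.759 in SCRM replicate 1 on 38 counts. Its delta PSI was 0.0648 with that library and -0.0499 without it. USP9X and USP25 carried the motif near exons with high inclusion, the lowest PSI of any library being 0.877. Over the list, 9 of 46 exons were lower, 7 higher and 0 called (34.8% not overlapping, against 30.9% of all exons), with a median delta PSI of -0.00171.

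USP53 and USP54 were long classed as lacking protease activity and stand in a list with USP39. They held 9 of the 29 alternatively used exons, all 9 of that list. The 5 exons of USP54 that were alternatively used all had a positive delta PSI, from 0.0116 to 0.126. Exon 19 had the largest, with 0.889 and 0.964 with RBFOXi and 0.670 and 0.932 with SCRM, and its delta PSI was -0.00543 without SCRM replicate 1, which held 22 counts. Exon 22, 141 nt, had 0.584 and 0.658 against 0.457 and 0.642, so the groups overlapped, and its delta PSI of 0.0717 was -0.0207 without SCRM replicate 1. In USP53, both 5′ UTR exons were higher in SCRM replicate 1 than in the other libraries, at 0.342 against 0.0966 to 0.154 for exon 2 and at 0.508 against 0.174 to 0.276 for exon 4. USP53 exon 5, of 686 nt, had 0.842 and 0.756 with RBFOXi and 1.00 and 0.706 with SCRM. The groups overlapped at these 3 exons, and each of the 3 changed the sign of delta PSI without SCRM replicate 1.

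The precision at these exons can be read from the intervals of the log2 odds change. Over all genes, the 41 distinct exons that were called (0.134%) had a median change of -2.57 where they fell and 2.73 where they rose, and they were picked for large changes. At 28 of the 29 alternatively used USP exons the 95% interval left out a fall of that median size, at 22 it left out the median rise, and at 22 both. For the 178 exons together, 67 intervals left out both. Exons close to full inclusion hold few skipping counts, and an interval that holds one of these medians does not exclude a change of that size.

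**Figure D3:**
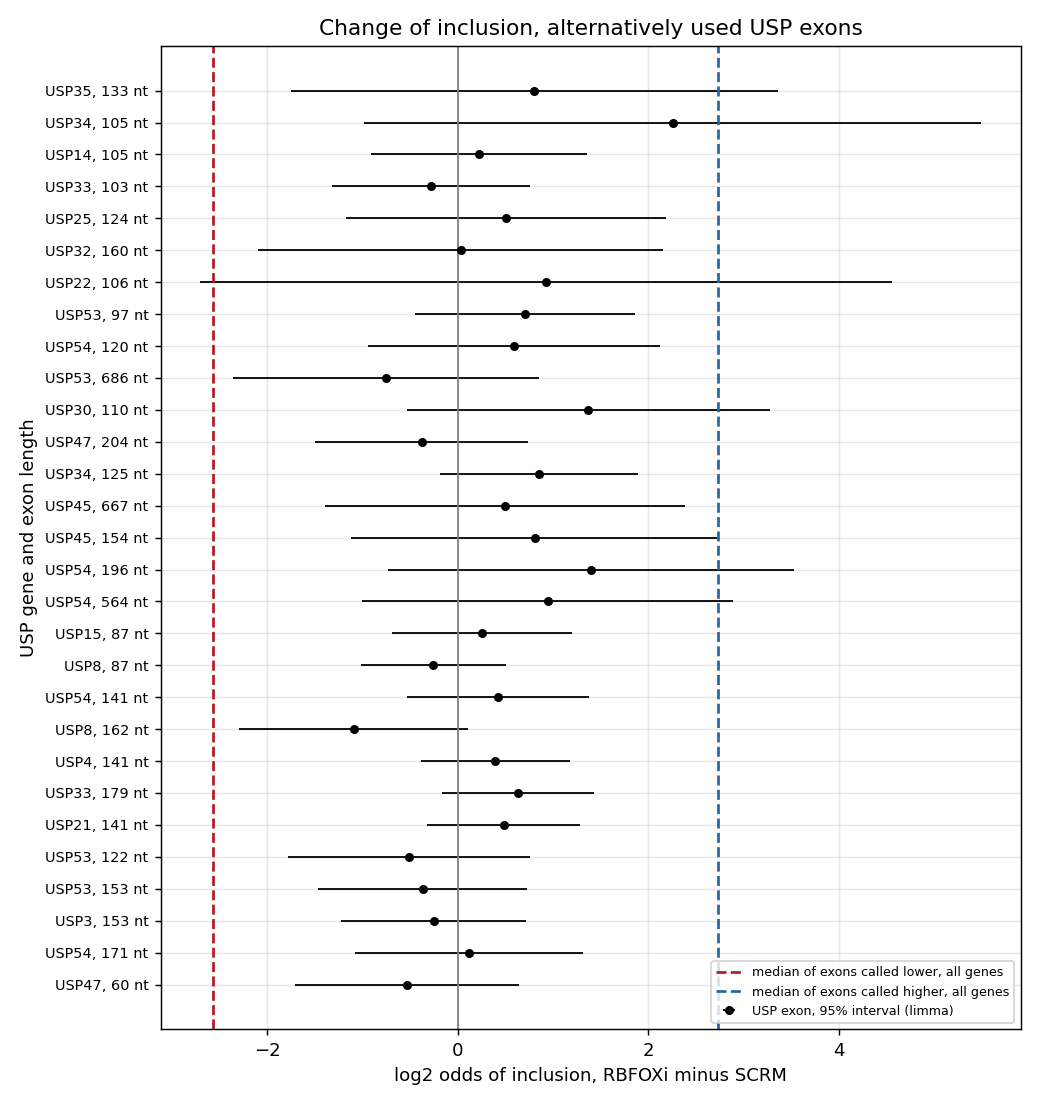
Change of the log2 odds of inclusion (RBFOXi minus SCRM) with its 95% interval from limma, for the 29 alternatively used USP exons. The dashed lines mark -2.57 and 2.73, the median changes of exons called lower and higher over all genes, and 22 of the intervals reach neither line.

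The USP exons with UGCAUG downstream were, apart from USP8 exon 12, nearly always included or nearly always skipped. At the 12 exons the median delta PSI was -0.00603 and the log2 odds changed in the negative direction at 7, beside a median delta PSI of -0.00126 at the 2559 such exons of all genes. The search covered the strand of the gene only. Among the 29 alternatively used USP exons, 1 carried the motif in this window (3.45%), against 9.26% of all alternatively used exons. UGCAUG stood in the last 300 nt upstream of 16 USP exons (8.99%, against 8.16% of all exons). It was somewhere in the whole downstream intron of 96 (53.9%, against 49.9%). A match of these letters is not evidence of binding.

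The other event types gave no call in USP genes. With limma, 0 of 13 alternative 3′ splice sites (0.0% of all 3009 called), 0 of 13 alternative 5′ splice sites (0.0% of 2281) and 0 of 4 retained introns (0.0% of 1034) were called, and the quasi-binomial F test called 0 as well. An unadjusted p under 0.05 was found for 0 of these events with limma (3.22%, 3.42% and 1.55% of all events of the 3 types) and for 0 with the F test. The groups did not overlap at 2 of 13, 2 of 13 and 1 of 4 events, against 30.9%, 30.1% and 27.9% of all events of these types. The alternative 5′ splice site of USP54 adds 15 nt and was used at 0.805 and 0.809 with RBFOXi and 0.946 and 0.882 with SCRM. It was lower in both RBFOXi libraries, with a delta PSI of -0.107, or -0.0749 without SCRM replicate 1, on 40 to 90 counts per library and with a limma p of 0.0910. The same 15 nt measured against another pair of exons gave 0.910 and 0.969 against 0.978 and 0.875, so that the groups overlapped. The alternative 5′ splice site of USP5, which adds 69 nt, was the deepest, with 1060 to 1340 counts per library. Its long form was used at 0.0837 and 0.0852 with RBFOXi and 0.103 and 0.0874 with SCRM, a delta PSI of -0.0110 with no overlap that was -0.00296 without SCRM replicate 1 and -0.0190 without SCRM replicate 2. An intron of 177 nt in USP20 was retained at 0.310 and 0.326 against 0.332 and 0.395, with a delta PSI of -0.0450 that was -0.0765 without SCRM replicate 1 and -0.0136 without SCRM replicate 2. Among 3′ splice sites whose groups did not overlap, USP40 had a delta PSI of -0.0389 on a site that adds 3 nt, with -0.0185 without RBFOXi replicate 2. USP48 had 0.0107 on a site that adds 39 nt to exon 16, with 0.00529 without RBFOXi replicate 1. All counts of that long form came from the RBFOXi libraries, so that event passed the filter for each form through them alone.

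Mutually exclusive exons made up 182 of the USP events and 179 of the tested ones. For 181 of the 182 (99.5%, against 96.3% of all such events) both exons stand together in an annotated transcript, so the pair is not exclusive in the annotation. The share is that of the upstream exon of the pair. limma called 0 of the 179 events (0.00764% of all 26176), the count at an unadjusted p under 0.05 was 0 (1.44% of all), and the F test gave 0 for both. Among pairs whose groups did not overlap, the largest differences were -0.148 in USP42, with 0.515 and 0.595 against 0.798 and 0.607, and 0.107 in USP53, with 0.451 and 0.422 against 0.265 and 0.394. In both, SCRM replicate 1 held the extreme value, on 17 and 27 counts, and without it they came to -0.0525 and 0.0427. Without SCRM replicate 2, however, 16 USP events in 8 genes were called, 15 of them higher with RBFOXi, beside 1331 events of all genes (5.08%). In all 16, both exons stand in 1 transcript, and SCRM replicate 1 alone lay apart from the other 3 libraries. A pair in USP46 shows this, with 0.472 and 0.497 in the RBFOXi libraries, 0.254 in SCRM replicate 1 and 0.474 in SCRM replicate 2. One pair of USP10 had 0.489 and 0.476, then 0.335 and 0.481, on a mean of 6974 counts per library. USP31 was the exception in direction, with 0.721 and 0.742, then 0.884 and 0.718. Such a value is the share of counts on the upstream of 2 exons, and SCRM replicate 1 is the library whose counts fell most with distance from the 3′ end. Whether the 2 are linked was not tested. Without SCRM replicate 1, 0 USP pairs were called.

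**Figure D4:**
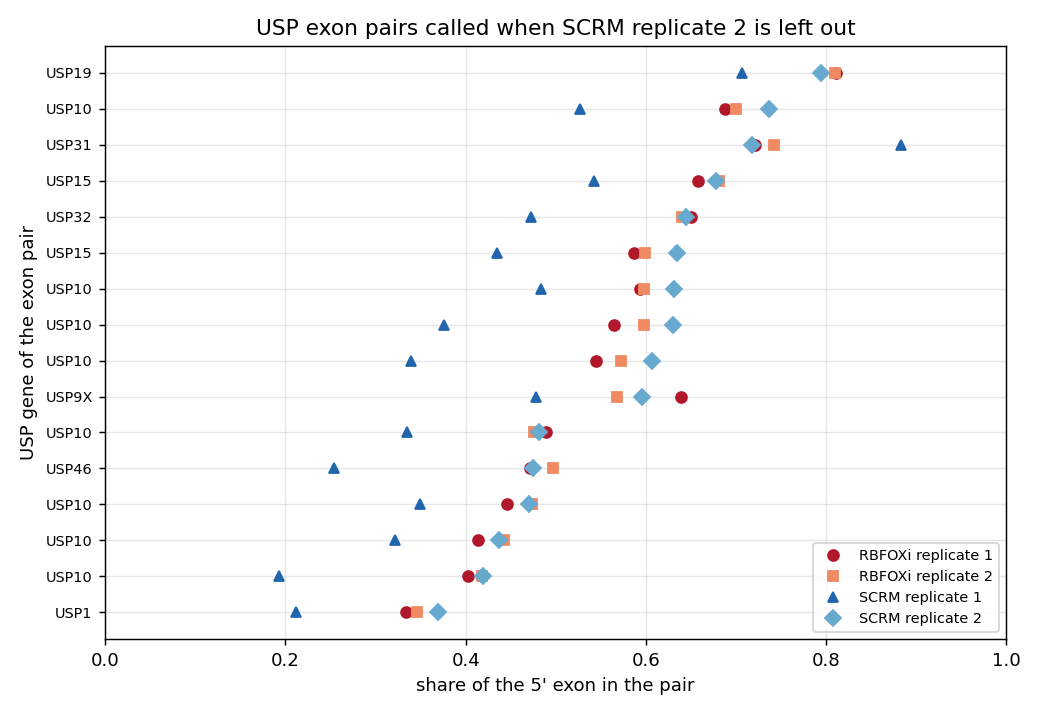
Share of the upstream exon (0 to 1) in the 16 USP exon pairs called when SCRM replicate 2 was left out, by gene and library. SCRM replicate 1 lies below the other 3 libraries in 15 pairs and above them in the pair of USP31.

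A list of genes from the other deubiquitinase families gave the same count. The list went by family and did not ask whether each member has protease activity. Of 42 listed genes, 32 had a tested exon, and of their 96 exons limma called 0 (0.134% of all exons), with 1 at an unadjusted p under 0.05 (3.46% of all exons). Of these exons 20 were lower and 16 higher (37.5% not overlapping, against 30.9% of all exons), with a median delta PSI of -0.000537. That 1 exon was in OTUD7B, a protease of the OTU family, with 1.00 and 0.987 with RBFOXi and 0.929 and 0.960 with SCRM. Its log2 odds changed by 3.19 (SE 1.07), with a limma p of 0.00684 and an adjusted p of 0.99995. Delta PSI at this exon was 0.0494, and 0.0341 without SCRM replicate 1. The largest absolute delta PSI was 0.163 in UCHL5, a protease bound to the proteasome, with a limma adjusted p of 0.99995. Its values per library and without SCRM replicate 1 are not given here.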

How the data were processed

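The authors mapped the reads to hg19 (STAR 2.4.2a, unique alignments) and ran rMATS 3.0.9 with UCSC known genes. The deposited tables give, per event, paired counts of inclusion and skipping reads for the 2 libraries of each group, with effective lengths of both forms. They also hold the authors' PSI, p-values, q-values (FDR) and inclusion level differences, which were not used.

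PSI was recomputed from the length-corrected counts. The log2 odds of inclusion (pseudocount 0.5) were fitted over all events of a type with limma 3.58.1 in R 4.3.3, with condition as the only term and a variance trend over the precision expected from the counts. Events needed 5 counts in every library, a mean of 20 and 4 counts of each form. The skipped exon fit was also run on simulated counts, with the outcome not reported here. Counts over skipped exon events came to 114415530 to 136097319 per library, and since reads are counted in several events they are not independent molecules, so tests used the spread between replicates. Exons were matched to GENCODE 44 lifted to GRCh37, and introns read from GRCh37. Python 3.11.15, pandas 2.3.3, numpy 2.4.6, pysam 0.24.0 and matplotlib 3.10.9 were used. The members, gene lists and tests were chosen with earlier results of these data known. Exons named were the tested USP8 exons, the 5 largest differences in each direction among exons whose groups did not overlap (and the largest per other event type), the 10 deepest alternatively used exons (1 per gene) and those with UGCAUG within 300 nt downstream. Other exons, such as those of USP53, USP54, USP47, USP3, USP5 and USP10, were chosen after their values were seen, as members of the role lists. Alternatives covered the pseudocount, filter, delta PSI minimum, PSI definition, 1 event per exon, the replicate number as a block, each library left out, the intron stretch and a quasi-binomial F test.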

Additional observations from a re-analysis of the deposited data

How the results depend on the processing

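With 2 libraries per group, precision in USP genes was limited. SCRM replicate 1 had low counts there, and exons near full inclusion held few skipping counts. The part of each in the limited precision was not tested. No alternative called a USP skipped exon, 3′ or 5′ splice site or retained intron. For mutually exclusive exons, 0 were called in USP genes except 16 without SCRM replicate 2, so that the counts with a library left out ranged from 0 to 16. The count of skipped exons called over all genes was 44, and it was 18 with a pseudocount of 0.1 and from 13 to 61 with 1 library left out. The quasi-binomial F test, added after seeing the data in place of a count test that the paired columns did not allow, gave 40. Adding the replicate number as a block gave 133 calls over all genes and 0 in USP genes. The titles of both libraries numbered 1 end in D_R and those of both numbered 2 in P, with no label saying what these endings mean. Deviations of the libraries numbered 1 from their group means correlated at 0.0944 over 39615 events. With 2 libraries per group the deviations of those numbered 2 mirror these, so they add no second check. The numbers were not taken to pair the libraries, and whether they share a batch was not tested beyond this. The share of USP exons with the motif was 2.25% in the first 100 nt downstream and 23.0% for GCAUG in place of UGCAUG. The median delta PSI ranged from -0.00221 to 0.000834 over the fits with 1 library left out.

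On the log2 odds scale the direction turned for 9 named exons when 1 library was left out, with these ranges of delta PSI. USP8 exon 2 of 169 nt ranged from -0.00272 to 0.0152, exon 3 from -0.0230 to 0.00664 and exon 8 from -0.00936 to 0.00282. USP14 exon 4 ranged from -0.0282 to 0.0425, USP15 exon 7 from -0.0355 to 0.114 and USP47 exon 2 from -0.136 to 0.0545. USP32 exon 5 ranged from -0.0499 to 0.180, USP53 exon 5 from -0.201 to 0.0926 and USP34 exon 21 from -0.0757 to -0.0453. The log2 odds of USP32 exon 5 also turned with a pseudocount of 0.1, at the same delta PSI of 0.0648. As a plain share of counts with no length correction, delta PSI was over 1.5 times smaller, among other exons, at USP48 exon 16 (-0.0422), USP30 exon 3 (-0.0253), USP13 exons 2 and 4 (-0.0278 and -0.0259), USP34 exons 74 and 21 (0.0364 and -0.0354), USP36 exon 8 (0.0388) and USP8 exon 7 (-0.0101). Both measures use the same counts and differ only in the correction for the lengths of the forms.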
